A study of Mus musculus with 12 samples.

Results

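The glutathione and electrophile defence genes are the transcripts with which a cell makes glutathione, joins it to reactive chemicals and removes peroxides. They were taken as the rows named Gsta, Gstk, Gstm, Gsto, Gstp or Gstt with a number (glutathione transferases), Gpx with a number (glutathione peroxidases) or Prdx with a number (peroxiredoxins), together with Gclc, Gclm, Gss, Gsr, Nqo1, Hmox1, Txn1, Txnrd1, Srxn1, Slc7a11, Nfe2l2 and Keap1. The rule used names only and found 53 of the 36400 genes. They are 21 transferases, 7 glutathione peroxidases, 5 genes of glutathione supply, 10 genes of the peroxiredoxin and thioredoxin system, 2 enzymes of quinone and haem metabolism, the transcription factor gene Nfe2l2 with its inhibitor Keap1, and 6 processed pseudogenes.

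Glutathione is a small thiol made from glutamate, cysteine and glycine. Cystine enters through the exchanger encoded by Slc7a11, glutamate-cysteine ligase (Gclc and Gclm) carries out the limiting step, glutathione synthetase (Gss) completes the molecule, and glutathione reductase (Gsr) restores it after oxidation. Glutathione transferases join it to electrophiles, chemicals that attack thiols, and dinitrochlorobenzene (DNCB), the agent painted on the skin here, is the standard laboratory substrate of these enzymes. The factor NRF2 (Nfe2l2) is held down by KEAP1 until electrophiles or oxidants modify KEAP1. NRF2 then binds antioxidant response elements near many of these genes.

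The 12 libraries come from dorsal skin of female BALB/c mice, aged 6 weeks when purchased, with 3 mice for each of 4 groups. The backs were shaved, and skin was collected on day 30. Control skin received the acetone and olive oil vehicle. DNCB skin was sensitized with 1% DNCB from day 0 to day 9 and challenged with 0.5% DNCB from day 12 to day 27. The scMSC group had the same DNCB course and, in 4 doses from day 13 to day 25, 2000000 human umbilical cord mesenchymal stem cells (MSCs) in 100 µL culture solution under the skin beside the dermatitis. The scivMSC group received each dose by both routes, 50 µL subcutaneously and 50 µL by the tail vein. No injection of culture solution alone is named for the other groups, so that cells, solution and injection cannot be told apart.

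The antioxidant response element was looked for in the RefSeq promoters of GRCm38.p6, from 250 bases before to 50 bases after each gene start. Its core was searched as TGACNNNGC on both strands, a word that can overlap the AP-1 site TGACTCA. It lay in the promoter of 8 of the 40 genes with an entry, or 20%, and in 14% of the promoters of all 27025 genes in the table. The stretches of the 7 genes whose match lies upstream of the start are printed so that the element can be seen beside the values that follow, with the matched letters in capitals and the gene's own strand read 5′ to 3′. The stretches of Gsta3 (chr1:21240444-21240492), Nfe2l2 (chr2:75704875-75704913), Gstm5 (chr3:107895792-107895840) and Gstm7 (chr3:107931715-107931763) carry the word as written. Those of Gclm (chr3:122245403-122245451), Prdx1 (chr4:116685446-116685494) and Txnrd1 (chr10:82859094-82859142) carry it on the opposite strand. The plus strand holds Gsta3, Gstm5, Gclm, Prdx1 and Txnrd1, and the minus strand Nfe2l2 and Gstm7.
Gsta3: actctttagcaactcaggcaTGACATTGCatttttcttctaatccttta
Nfe2l2: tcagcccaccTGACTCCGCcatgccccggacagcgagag
Gstm5: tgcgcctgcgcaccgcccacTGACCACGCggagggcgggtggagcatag
Gstm7: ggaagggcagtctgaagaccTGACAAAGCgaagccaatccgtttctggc
Gclm: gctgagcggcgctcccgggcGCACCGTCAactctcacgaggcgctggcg
Prdx1: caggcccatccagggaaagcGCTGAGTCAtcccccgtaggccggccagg
Txnrd1: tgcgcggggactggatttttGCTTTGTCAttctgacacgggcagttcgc

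The word begins 121 bases before the start of Gsta3, 240 before Nfe2l2, 42 before Gstm5, 129 before Gstm7, 134 before Gclm, 133 before Prdx1 and 92 before Txnrd1. In Srxn1 it lies 29 bases after the start. These are RefSeq starts, and a gene with several counts as holding the word if it lies near any of them. Txnrd1 has 3, and the word stands before one that is 25255 bases inside the gene as annotated in the table. Gstm7 has 2, and its word stands before the one 203 bases inside the gene. A match is a description of these letters, and 13 of the 53 genes had no entry. Sites further from the start were not looked for, so that a gene without a match may still hold the element.

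The libraries held 63877153 to 75134001 estimated counts, and 48 of the 53 genes passed the filter of a mean of at least 0.1 FPKM (fragments scaled by gene length and library size). Gpx5, Gstt4, Prdx6b, Prdx2-ps2 and Gpx2-ps1 did not pass, and no library exceeded 0.406 FPKM for any of them. The estimated counts of all 21890 genes that passed went into edgeR's quasi-likelihood test, with a call where the p, adjusted over all of them by Benjamini-Hochberg, was under 0.05. Fold changes are given as log2 values with their standard error (SE), positive where the first named group is higher. They come from TMM-scaled counts, whereas FPKM values are scaled to library size. With library size alone the median of all genes in DNCB against control moved from 0.02 to 0.20 on the log2 scale, and the share of all calls that were higher from 51.1% to 67.3%. The libraries are whole skin, in which fewer cells of a type and less RNA per cell cannot be told apart.

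Markers of the labelled tissue were present in every group, and those of several cell types moved with the groups. The summed FPKM of 6 basal keratinocyte markers ran from 2180 to 3030 in control, 8200 to 10500 in DNCB, 1760 to 2590 in scMSC and 2890 to 5510 in scivMSC skin. That of 6 fibroblast markers ran from 232 to 346, 1920 to 2230, 245 to 750 and 124 to 946, and that of 6 neutrophil markers from 120 to 207, 2460 to 3430, 15.8 to 65.3 and 34.3 to 177. The basal keratinocyte markers did not move together. Krt14 went from a mean of 895 FPKM in control to 6350 in DNCB, and Krt5, Itga6 and Trp63 were also higher. Krt15 went the other way, from 529 to 187, and Col17a1 was at 66 and 61.2. The 7 skeletal muscle markers summed to between 14700 and 21400 in control skin and to between 3870 and 10400 in the libraries of the other groups. Among appendages, the 8 hair follicle markers ran from 5.84 to 305 in control, 285 to 871 in DNCB, 6000 to 16900 in scMSC and 2300 to 5550 in scivMSC, and the 7 sebaceous gland markers from 585 to 731, 81 to 112, 358 to 613 and 367 to 884. No listed marker was at 0 in every library of a group. The part of these shifts in the values that follow was not tested.

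**Figure D1:**
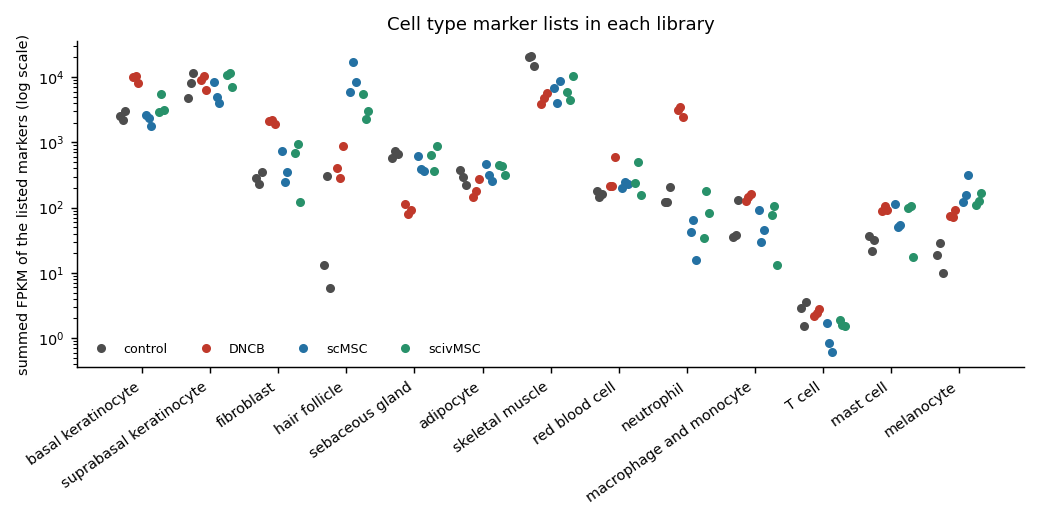
Summed FPKM of each marker list (vertical axis, log scale) in each of the 12 libraries (points), by cell type and coloured by group. The 3 DNCB libraries lie highest for basal keratinocyte, fibroblast and neutrophil markers and lowest for sebaceous gland markers, and the 3 control libraries lie highest for skeletal muscle markers.

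DNCB skin carried more Slc7a11, Gsto1, Gpx7 and Gpx2 transcript than control skin and less Gstm1, Gpx4 and Prdx3. Of the 48 genes tested, 14 were called higher and 12 lower in DNCB than in control skin. Over all genes 12.9% were called higher and 12.4% lower. The median log2 fold change of the 48 genes was -0.28, beside 0.02 over all genes tested. By role, 3 of the 20 transferases tested were higher and 6 lower, 4 of the 6 peroxidases were higher and 1 lower, and 3 of the 5 genes of glutathione supply were higher and 0 lower. The peroxiredoxin and thioredoxin system had 2 higher and 2 lower of 9, and 3 of the 4 pseudogenes tested were lower. These 3 are among the 12 lower calls. They share part of their sequence with Gpx4, Gstm1 or Prdx2, so that the 12 are not all separate.

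Both MSC groups had less of the transcripts of Slc7a11, Gsto1, Gsta4, Gsta1, Gpx7 and Nfe2l2 than untreated DNCB skin. In scMSC against DNCB, 4 of the 48 genes were called higher and 13 lower, where 6.95% of all genes were higher and 5.77% lower. In scivMSC against DNCB, 2 were higher and 12 lower, where all genes gave 4.56% and 3.60%. The medians over the 48 genes were -0.19 and -0.09, each beside 0.02 over all genes. The count of 17 in scMSC against DNCB was 11 without DNCB replicate 2. That of 14 in scivMSC against DNCB was 6, 5 and 5 without DNCB replicates 1, 2 and 3, and 5 and 4 without scivMSC replicates 1 and 3. The comparisons with DNCB share the same 3 DNCB libraries, and those with control the same 3 control libraries.

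Against control skin, 4 genes were higher and 15 lower in scMSC, where 10.4% of all genes were higher and 8.12% lower. The 19 calls became 12 without control replicate 1, 10 without scMSC replicate 2 and 11 without scMSC replicate 3. In scivMSC against control, 3 were higher and 9 lower, where all genes gave 7.11% and 6.13%. The medians over the 48 genes were -0.44 and -0.30, beside 0.00 and 0.04 over all genes.

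**Figure D2:**
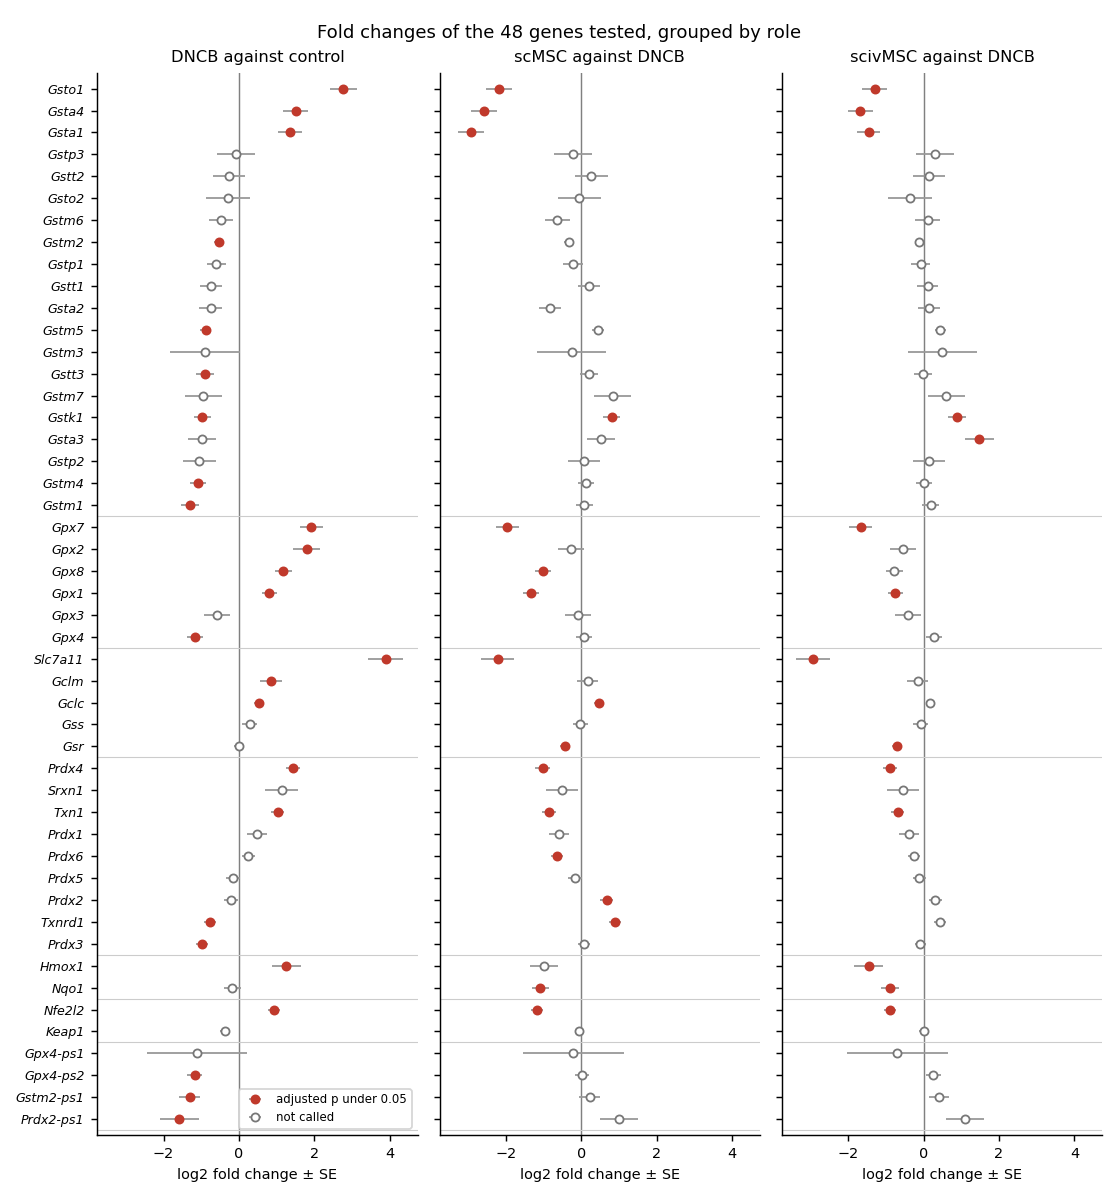
Log2 fold change ± SE (horizontal axis) of the 48 genes tested, in rows grouped by role, for DNCB against control, scMSC against DNCB and scivMSC against DNCB. Filled red points are called at an adjusted p under 0.05 and open points are not, and Slc7a11 has the highest value in the first panel, at 3.89.

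Slc7a11 (ENSMUSG00000027737, GRCm38 chr3:49892526-50443614, minus strand), the cystine carrier, had the highest fold change of the 48 genes in DNCB against control. Its levels were 0.221, 0.214 and 0.317 FPKM in the control libraries, 4.51, 4.61 and 3.53 in DNCB, 0.514, 1.09 and 1.03 in scMSC, and 0.467, 0.950 and 0.247 in scivMSC. The 3 DNCB libraries were above the other 9. The transcript exceeded its control level in DNCB skin by 3.89 ± 0.47 (SE, n = 3 per group; edgeR adjusted p = 0.000653), a 14.8-fold difference. It was lower than in DNCB in scMSC, at -2.22 ± 0.43 (edgeR adjusted p = 0.00795), and in scivMSC, at -2.94 ± 0.44 (edgeR adjusted p = 0.00562). Levels in scMSC stayed above control by 1.67 ± 0.43 (edgeR adjusted p = 0.0216), a call lost without control replicate 1 or 2 or scMSC replicate 2 or 3 (adjusted p 0.0584 to 0.0942). In scivMSC the libraries overlapped those of control (0.96 ± 0.42, edgeR adjusted p = 0.168). Several predicted genes overlap this locus on both strands, and the counting was not stated to use strand.

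The ligase that limits glutathione synthesis had another course. Gclc (ENSMUSG00000032350, chr9:77754535-77794485, plus strand), its catalytic subunit, read 5.90, 6.18 and 6.18 FPKM in control, 10.7, 8.50 and 10.7 in DNCB, 13.2, 14.1 and 13.4 in scMSC, and 11.6, 12.9 and 9.25 in scivMSC. No library of the DNCB-exposed groups reached down to the control libraries, and the scMSC libraries were the highest. Against control the difference was 0.52 ± 0.13 in DNCB (edgeR adjusted p = 0.0137), 1.00 ± 0.13 in scMSC (0.00126) and 0.70 ± 0.13 in scivMSC (0.00839). The first of these was lost without control replicate 1 or 3 or DNCB replicate 1 or 3 (adjusted p 0.0542 to 0.0663). Gclc was also higher in scMSC than in DNCB, by 0.47 ± 0.13 (edgeR adjusted p = 0.0364), but 16 of 23 alternatives lost that call (adjusted p 0.0542 to 0.158), among them those without any 1 control or DNCB library, scMSC replicate 2 or 3, or scivMSC replicate 1.

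Gclm, the regulatory subunit, read 1.07, 2.70 and 2.17 FPKM in control, 4.73, 3.21 and 4.25 in DNCB, 4.12, 4.86 and 4.40 in scMSC, and 4.05, 3.47 and 3.35 in scivMSC. All 9 DNCB-exposed libraries were above the 3 control libraries. The difference from control was 0.85 ± 0.28 in DNCB (edgeR adjusted p = 0.0492) and 1.01 ± 0.28 in scMSC (0.0313), and in scivMSC it was 0.69 ± 0.28 (0.138). The call in DNCB was lost without any 1 library other than control replicate 2 (15 of 23 alternatives, adjusted p 0.0518 to 0.146). That in scMSC was lost without control replicate 1 or 3 or scMSC replicate 2 or 3 (adjusted p 0.0526 to 0.122). Gss, which adds glycine, was not called in any comparison, with group means of 2.58, 3.59, 3.44 and 3.39 FPKM in control, DNCB, scMSC and scivMSC.

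Gsr, the reductase that recycles glutathione, was lower in the MSC groups than in both other groups. Its levels were 9.72, 8.34 and 8.35 FPKM in control, 10.4, 9.38 and 10.1 in DNCB, 6.77, 7.07 and 7.83 in scMSC, and 6.29, 6.55 and 5.22 in scivMSC. All 6 MSC libraries lay below the 6 others. Against DNCB the difference was -0.44 ± 0.13 in scMSC (edgeR adjusted p = 0.0455) and -0.72 ± 0.13 in scivMSC (0.00967), and against control it was -0.45 ± 0.13 (0.034) and -0.73 ± 0.13 (0.00712). The scMSC calls were lost in 13 and 14 of 23 alternatives (adjusted p 0.0532 to 0.139 and 0.0505 to 0.149). Among those were the fits without any 1 DNCB or scMSC library, in both, those without control replicate 2 or scivMSC replicate 1 or 2, in the first, and that without control replicate 1, in the second. DNCB against control gave -0.01 ± 0.13 (edgeR adjusted p = 0.984), and its sign changed with the scaling.

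Among the 20 transferases tested, 3 were called higher in DNCB than in control skin, a share near the 12.9% of all genes. Gsto1 (ENSMUSG00000025068, chr19:47854970-47864790, plus strand), an omega-class enzyme that reduces rather than conjugates many of its substrates, read 11.0, 14.7 and 15.0 FPKM in control, 104, 123 and 88.3 in DNCB, 25.9, 21.7 and 20.7 in scMSC, and 29.1, 75.3 and 24.3 in scivMSC. The DNCB libraries were the highest, and scivMSC replicate 2 stood apart from the other 5 MSC libraries. Gsto1 was 6.83-fold higher in DNCB than in control (log2 2.77 ± 0.36, n = 3 per group, edgeR adjusted p = 0.00087) and lower in scMSC than in DNCB by -2.19 ± 0.35 (0.00365). In scivMSC the difference from DNCB was -1.31 ± 0.34 (edgeR adjusted p = 0.0416), a call that 14 of 23 alternatives lost (adjusted p 0.052 to 0.14), including those without any 1 library other than scivMSC replicate 2. Against control, scivMSC was higher by 1.47 ± 0.34 (0.0199; adjusted p 0.0531 to 0.0916 where lost, as without any 1 control library), and scMSC by 0.58 ± 0.34 (0.268). Its neighbour Gsto2 had group means of 0.206 to 0.298 FPKM and was not called. The gene Cfap43 overlaps both on the other strand.

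**Figure D3:**
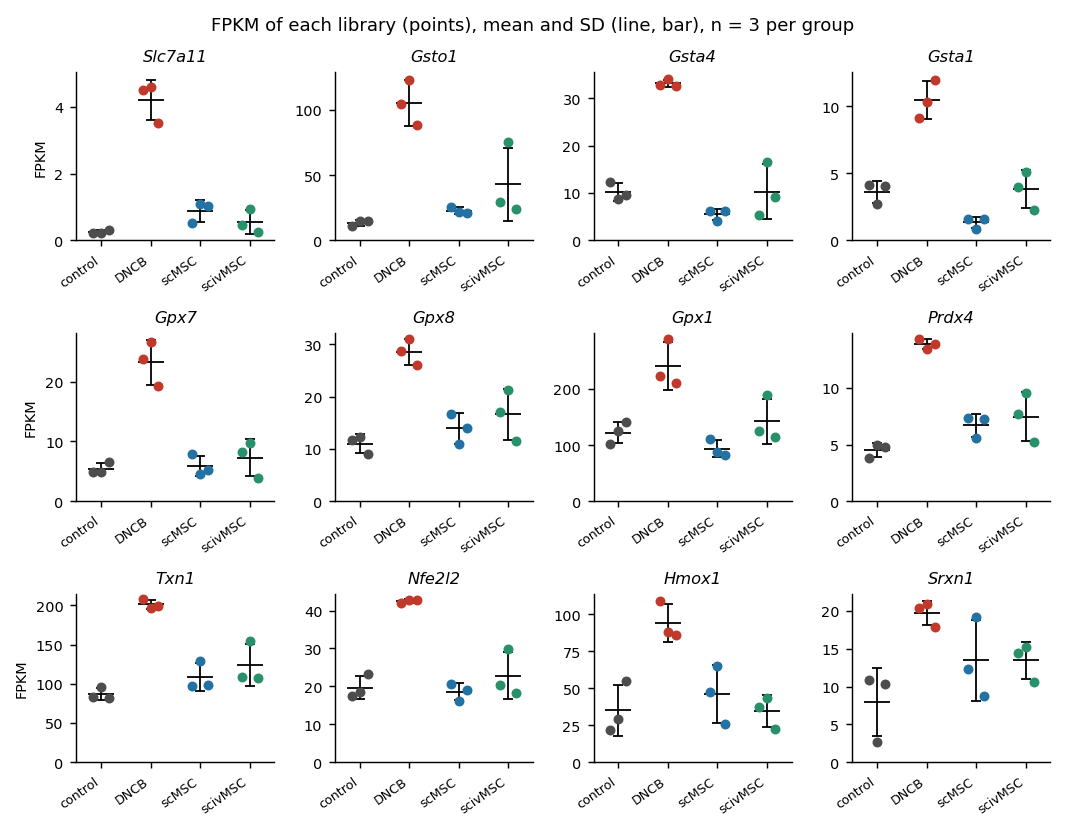
FPKM (vertical axis, from 0) of 12 genes in each library (points) by group, with the mean (line) and SD (bar) of 3 libraries. For 11 of the genes all 3 DNCB libraries lie above all libraries of the other groups, and for Srxn1 scMSC replicate 2, at 19.3 FPKM, lies among the DNCB libraries.

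Gsta4 and Gsta1 are alpha-class transferases that lie with Gsta2 between 78182774 and 78355788 on chromosome 9, and GSTA4 is known for clearing hydroxynonenal, a product of lipid peroxidation. Gsta4 (ENSMUSG00000032348) read 12.3, 8.74 and 9.68 FPKM in control, 32.8, 34.0 and 32.6 in DNCB, 6.20, 4.17 and 6.12 in scMSC, and 5.29, 16.6 and 9.07 in scivMSC. DNCB libraries were the highest and scMSC libraries lay below control. The difference from control was 1.51 ± 0.33 in DNCB (edgeR adjusted p = 0.0077). Against DNCB it was -2.58 ± 0.34 in scMSC (0.00215) and -1.68 ± 0.33 in scivMSC (0.0149), the last of these lost without DNCB replicate 2 or scivMSC replicate 3 (adjusted p 0.0503 to 0.0558 over the alternatives that lost it). In scMSC Gsta4 was also below control, by -1.07 ± 0.33 (edgeR adjusted p = 0.0457), a call lost in 15 of 23 alternatives and without any 1 control, DNCB or scMSC library (adjusted p 0.0521 to 0.131).

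Gsta1 read 4.11, 2.69 and 4.05 FPKM in control, 9.12, 10.3 and 12.0 in DNCB, 1.58, 0.861 and 1.59 in scMSC, and 3.99, 5.09 and 2.29 in scivMSC. The scMSC libraries were the lowest. Relative to control, DNCB skin had more, by 1.35 ± 0.32 (edgeR adjusted p = 0.0104), and levels were lower than in DNCB by -2.93 ± 0.33 in scMSC (0.00164) and -1.47 ± 0.32 in scivMSC (0.0207). That last call was lost without any 1 DNCB library or scivMSC replicate 1 or 3 (adjusted p 0.0511 to 0.0726). Of its 50-base stretches, 90.5% occur in another gene and 75.7% in the predicted gene Gm3776, so that the counts of Gsta1 depend on how shared reads were assigned. Gsta2, with 49.8% of its stretches shared, read 3.93, 7.10 and 6.88 FPKM in control, 4.93, 4.15 and 2.96 in DNCB, 2.91, 1.59 and 2.18 in scMSC, and 4.71, 5.05 and 3.49 in scivMSC. It was called only in scMSC against control, where it was lower by -1.59 ± 0.31 (edgeR adjusted p = 0.00601). Gsta3, on chromosome 1 and with the response element word in its promoter, read 1.32, 2.02 and 1.98 FPKM in control, 0.905, 1.46 and 0.669 in DNCB, 2.15, 0.920 and 1.25 in scMSC, and 4.00, 2.36 and 2.12 in scivMSC. Its scivMSC libraries were above those of control and DNCB. It was higher in scivMSC than in DNCB by 1.48 ± 0.38 (edgeR adjusted p = 0.0391), a call lost in 8 of 23 alternatives, among them those without scivMSC replicate 1 or 3, DNCB replicate 1 or 3, or control replicate 2 or 3 (adjusted p 0.0521 to 0.141).

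Of the 7 mu-class genes, which lie between 107895821 and 108044894 on chromosome 3, 4 were called lower in DNCB than in control and 0 higher, where 12.4% of all genes were lower. Gstm3, Gstm6 and Gstm7 did not pass the test. Gstm1 (ENSMUSG00000058135), the mu-class transcript of the highest level in control skin, read 71.9, 76.8 and 76.3 FPKM in control, 30.5, 39.4 and 33.5 in DNCB, 54.9, 27.8 and 25.7 in scMSC, and 37.5, 40.9 and 38.1 in scivMSC. All 9 DNCB-exposed libraries were below the control libraries, and scMSC replicate 1 was the nearest to them. The difference from control was -1.31 ± 0.23 in DNCB (edgeR adjusted p = 0.00289), -1.23 ± 0.23 in scMSC (0.0055) and -1.12 ± 0.23 in scivMSC (0.012), whereas scMSC and scivMSC differed from DNCB by 0.08 ± 0.23 (0.889) and 0.18 ± 0.23 (0.715). Gstm4 read 8.97, 8.65 and 8.08 FPKM in control, 3.56, 5.13 and 5.11 in DNCB, 4.49, 5.43 and 4.84 in scMSC, and 4.91, 3.79 and 5.16 in scivMSC. Again no exposed library reached control, with -1.08 ± 0.21 (edgeR adjusted p = 0.00471), -0.95 ± 0.21 (0.0119) and -1.06 ± 0.21 (0.0112) in the same order.

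Gstm2 read 40.6, 46.2 and 46.1 FPKM in control, 33.2, 36.5 and 34.8 in DNCB, 32.8, 24.6 and 24.5 in scMSC, and 30.6, 32.7 and 32.6 in scivMSC. Its control libraries were the highest. The difference from control was -0.53 ± 0.12 in DNCB (edgeR adjusted p = 0.00922), -0.86 ± 0.12 in scMSC (0.00154) and -0.65 ± 0.12 in scivMSC (0.00873), the first not called with library size alone or on FPKM (adjusted p 0.0561 to 0.0624). Gstm5 read 31.9, 33.6 and 27.4 FPKM in control, 20.2, 17.0 and 20.1 in DNCB, 26.2, 23.3 and 26.9 in scMSC, and 26.4, 22.1 and 28.2 in scivMSC. The DNCB libraries were the lowest, at -0.89 ± 0.15 against control (edgeR adjusted p = 0.00223), and the MSC groups differed from DNCB by 0.44 ± 0.15 each (0.0823 and 0.104). Gstm6 read 1.84, 2.71 and 2.85 FPKM in control, 2.82, 2.12 and 1.08 in DNCB, 1.42, 1.06 and 1.32 in scMSC, and 2.01, 2.05 and 2.36 in scivMSC. Only scMSC against control was called, at -1.11 ± 0.33 (edgeR adjusted p = 0.0397), and 15 of 23 alternatives lost it (adjusted p 0.0511 to 0.104), those without control replicate 2 or 3, DNCB replicate 2, any 1 scMSC library or scivMSC replicate 1 or 2 included. Gstm3 and Gstm7, with group means from 0.329 to 1.31 FPKM, were not called in any comparison.

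In the other classes, the theta-class Gstt3 read 4.54, 3.80 and 4.22 FPKM in control, 2.87, 2.63 and 2.08 in DNCB, 3.94, 2.38 and 2.27 in scMSC, and 3.14, 2.08 and 2.25 in scivMSC. It was lower than in control in DNCB, by -0.91 ± 0.24 (edgeR adjusted p = 0.0172; 0.052 to 0.0692 without control replicate 1 or DNCB replicate 3), and in scivMSC, by -0.92 ± 0.24 (0.0277; 0.0502 to 0.103 where lost, as without control replicate 1 or scivMSC replicate 2 or 3). Gstk1, the kappa-class enzyme of mitochondria and peroxisomes, read 9.75, 12.1 and 11.4 FPKM in control, 8.43, 5.79 and 5.01 in DNCB, 9.83, 11.1 and 11.9 in scMSC, and 10.2, 10.5 and 14.2 in scivMSC. The 3 DNCB libraries were the lowest, and the MSC groups overlapped control. Its difference was -0.98 ± 0.23 in DNCB against control (edgeR adjusted p = 0.0111), 0.80 ± 0.23 in scMSC against DNCB (0.0446) and 0.88 ± 0.23 in scivMSC against DNCB (0.0412). The MSC calls were lost in 12 and 9 of 23 alternatives (adjusted p 0.0529 to 0.151 and 0.0524 to 0.141), both without DNCB replicate 2 or 3, without scMSC replicate 3, without scivMSC replicate 1 and without control replicate 3. The first was also lost without control replicate 1 or 2, scMSC replicate 2 or scivMSC replicate 2, and the second without scivMSC replicate 3.

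The pi-class genes Gstp1, Gstp2 and Gstp3 lie between 4035407 and 4059461 on chromosome 19. Gstp1, the pi-class transcript of the highest level, read 66.8, 72.6 and 38.0 FPKM in control, 44.5, 43.2 and 46.2 in DNCB, 34.4, 35.2 and 43.2 in scMSC, and 35.6, 36.8 and 52.3 in scivMSC. Control replicate 3 lay within the range of the other groups. Gstp1 was called only in scMSC against control, at -0.83 ± 0.26 (edgeR adjusted p = 0.0471), a call that 16 of 23 alternatives lost (adjusted p 0.0545 to 0.116) and that needed every library other than control replicate 3 and scivMSC replicate 3. Gstp1 and Gstp2 share 33.7% and 54.3% of their 50-base stretches with other genes, mostly with each other. Neither Gstp2 nor Gstp3 was called, nor were Gstt1 and Gstt2.

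The summed levels of the 21 transferases overlapped between control and DNCB libraries, while the shares of Gsto1 and Gstm1 in the sum did not. The sum was 305 ± 20.4 FPKM (SD, n = 3, libraries 282 to 321) in control and 325 ± 20.1 (308 to 347) in DNCB. For scMSC it was 205 ± 32.6 (177 to 241) and for scivMSC 249 ± 31.0 (219 to 281). Gsto1 made up 4.48% ± 0.893 of the control sum and 32.2% ± 3.41 of the DNCB sum, beside 11.2% ± 0.909 for scMSC and 16.7% ± 8.99 for scivMSC. Gstm1 made up 24.7% ± 2.09, 10.6% ± 0.936, 17.2% ± 5.02 and 15.7% ± 1.32. These sums were not tested, and an exact permutation test of 3 against 3 libraries cannot give a p below 0.10.

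**Figure D4:**
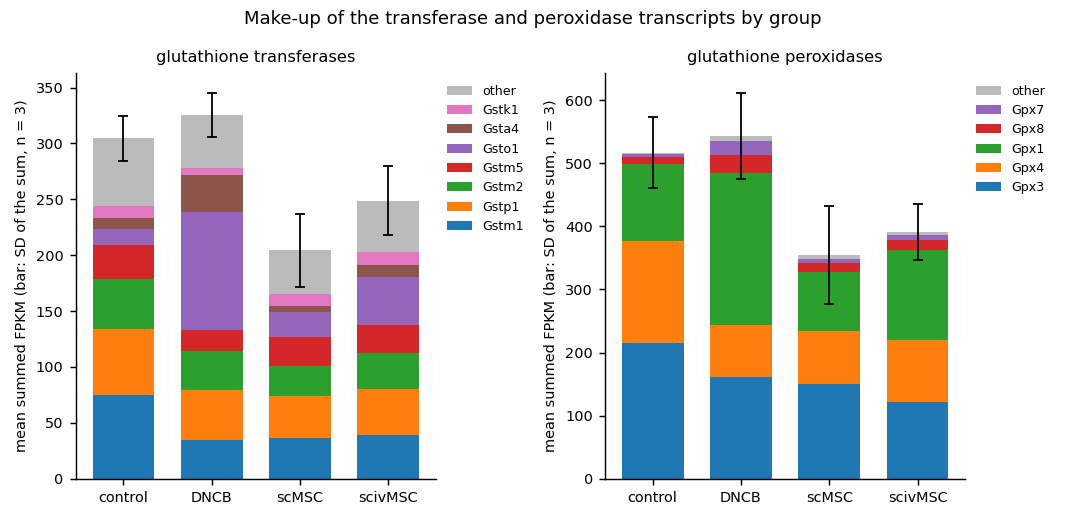
Mean summed FPKM per group (vertical axis, bar height) of the 21 glutathione transferases (left) and 7 glutathione peroxidases (right), with coloured parts for single genes and the SD of the sum over 3 libraries (bar). The part of Gsto1 is widest in DNCB, at 32.2% of the transferase sum, and that of Gpx1 is also widest there, at 44.3% of the peroxidase sum.

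The glutathione peroxidases reduce hydrogen peroxide and lipid peroxides. Of the 6 tested, 5 were called in DNCB against control, where 25.3% of all genes were called. Gpx7 (ENSMUSG00000028597, chr4:108400390-108406961, minus strand), a peroxidase of the endoplasmic reticulum, read 4.89, 4.89 and 6.51 FPKM in control, 23.8, 26.6 and 19.2 in DNCB, 7.86, 4.51 and 5.30 in scMSC, and 8.23, 9.77 and 3.90 in scivMSC. Its DNCB libraries were the highest, and both MSC groups overlapped control. Gpx7 in DNCB exceeded control by 1.92 ± 0.30 (edgeR adjusted p = 0.00164), and it was lower than in DNCB by -1.96 ± 0.30 in scMSC (0.00306) and -1.68 ± 0.30 in scivMSC (0.01). Gpx8, of the same compartment, read 11.8, 12.3 and 9.01 FPKM in control, 28.7, 31.0 and 26.1 in DNCB, 16.8, 11.0 and 14.1 in scMSC, and 17.1, 21.3 and 11.5 in scivMSC. It differed by 1.18 ± 0.22 in DNCB against control (edgeR adjusted p = 0.00376), by -1.02 ± 0.22 in scMSC against DNCB (0.0135) and by -0.78 ± 0.22 in scivMSC against DNCB (0.0546). The scMSC call was lost without DNCB replicate 2 or scMSC replicate 2 (adjusted p 0.053 to 0.0586), and Cdc20b overlaps Gpx8 on the other strand.

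Gpx1, the peroxidase of cytosol and mitochondria, read 102, 124 and 140 FPKM in control, 223, 289 and 211 in DNCB, 111, 88.1 and 83.0 in scMSC, and 125, 188 and 115 in scivMSC. Its levels in DNCB were above all others. The difference was 0.80 ± 0.20 in DNCB against control (edgeR adjusted p = 0.014; 0.0579 to 0.078 without control replicate 1 or DNCB replicate 2) and -1.34 ± 0.20 in scMSC against DNCB (0.00279). In scivMSC against DNCB it was -0.76 ± 0.20 (edgeR adjusted p = 0.0416), a call lost in 12 of 23 alternatives, among them those without any 1 control or DNCB library, scMSC replicate 2 or scivMSC replicate 1 or 3 (adjusted p 0.0541 to 0.152). Gpx2, known from epithelia, read 2.44, 1.98 and 1.34 FPKM in control, 9.79, 6.72 and 6.52 in DNCB, 5.62, 9.03 and 3.75 in scMSC, and 6.40, 5.31 and 4.04 in scivMSC. All 9 exposed libraries were above control. Against control it was higher by 1.80 ± 0.36 in DNCB (edgeR adjusted p = 0.0048), 1.52 ± 0.36 in scMSC (0.0144) and 1.25 ± 0.35 in scivMSC (0.0401). The scMSC call was lost without control replicate 3 or scMSC replicate 2 (adjusted p 0.056 to 0.0712). That in scivMSC was lost in 9 alternatives (adjusted p 0.0551 to 0.133), as without any 1 control library, DNCB replicate 2 or 3 or scivMSC replicate 1 or 2.

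Gpx4 (ENSMUSG00000075706, chr10:80047166-80056439, plus strand), the peroxidase that reduces lipid peroxides within membranes, read 171, 179 and 132 FPKM in control, 78.0, 80.2 and 87.7 in DNCB, 86.5, 74.6 and 92.0 in scMSC, and 86.3, 77.2 and 130 in scivMSC. Only scivMSC replicate 3 approached the control libraries. Against control it was lower by -1.16 ± 0.22 in DNCB (edgeR adjusted p = 0.0038), -1.10 ± 0.22 in scMSC (0.00696) and -0.88 ± 0.22 in scivMSC (0.0241), the last lost without control replicate 1 or 2 or scivMSC replicate 1 or 2 (adjusted p 0.0518 to 0.106 over the alternatives that lost it). The processed pseudogene Gpx4-ps2 shares 83.9% of its 50-base stretches with Gpx4, and the values of the pair cannot be separated. Gpx4-ps2 read 50.9, 60.4 and 46.3 FPKM in control, 25.4, 27 and 27 in DNCB, 26.6, 23.8 and 28.9 in scMSC, and 31.7, 23.8 and 38.2 in scivMSC. Its differences from control were -1.18 ± 0.20 (edgeR adjusted p = 0.00202), -1.16 ± 0.20 (0.00319) and -0.92 ± 0.19 (0.0131). Gpx3, the secreted peroxidase, had means of 215, 161, 150 and 121 FPKM in control, DNCB, scMSC and scivMSC and was not called.

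**Figure D5:**
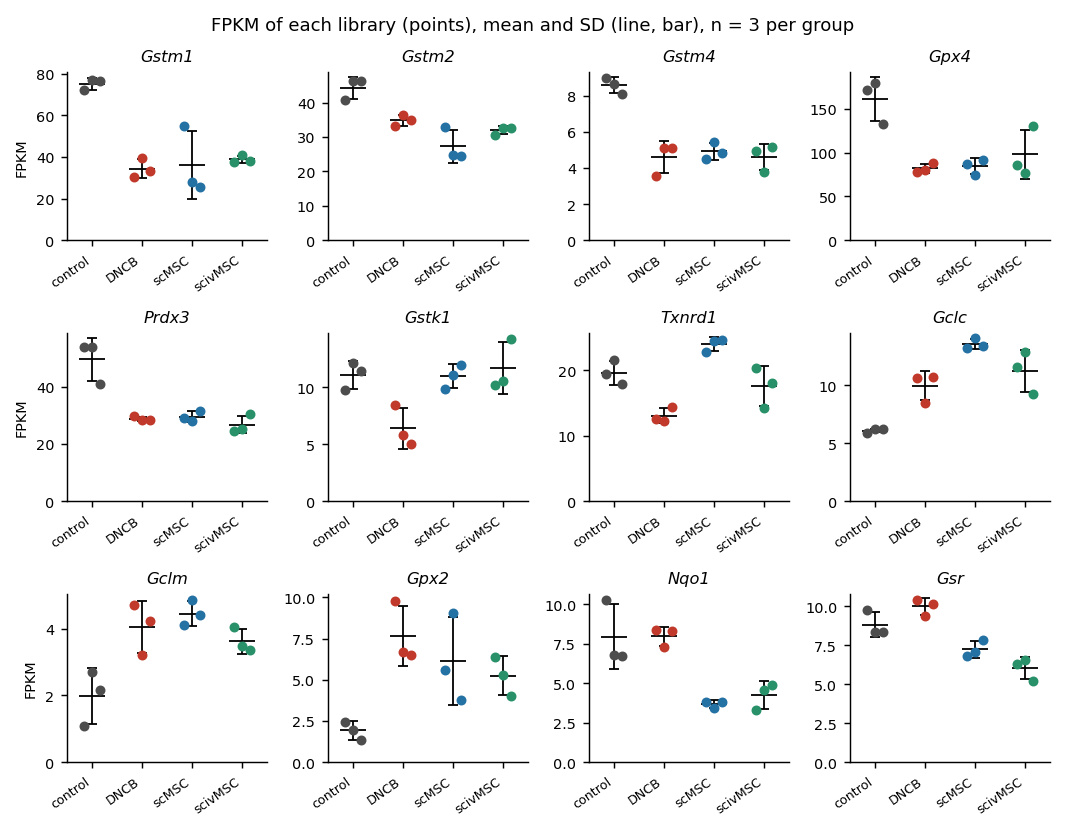
FPKM (vertical axis, from 0) of 12 genes in each library (points) by group, with the mean (line) and SD (bar) of 3 libraries. Gstm1, Gstm2, Gstm4, Gpx4 and Prdx3 are highest in the 3 control libraries, Gclc, Gclm and Gpx2 lowest there, Gstk1 and Txnrd1 lowest or near lowest in DNCB, and Nqo1 and Gsr lower in all 6 MSC libraries than in the others.

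Peroxiredoxins remove peroxides with electrons from thioredoxin. Txn1, cytosolic thioredoxin, read 82.4, 96.1 and 81.6 FPKM in control, 208, 196 and 199 in DNCB, 96.8, 129 and 98.9 in scMSC, and 109, 155 and 107 in scivMSC. DNCB exceeded control by 1.03 ± 0.18 (edgeR adjusted p = 0.00249), and Txn1 was lower than in DNCB by -0.86 ± 0.18 in scMSC (0.0103) and -0.70 ± 0.18 in scivMSC (0.0366). The scivMSC call was lost without control replicate 1, any 1 DNCB library or scivMSC replicate 1 or 3 (adjusted p 0.0569 to 0.135 over the alternatives that lost it). Prdx4, the peroxiredoxin of the endoplasmic reticulum, read 3.78, 4.98 and 4.75 FPKM in control, 14.3, 13.4 and 13.9 in DNCB, 7.33, 5.54 and 7.25 in scMSC, and 7.66, 9.52 and 5.21 in scivMSC. The DNCB libraries were the highest and the control libraries the lowest. Prdx4 differed by 1.44 ± 0.19 in DNCB against control (edgeR adjusted p = 0.000951), -1.03 ± 0.19 in scMSC against DNCB (0.00663) and -0.90 ± 0.19 in scivMSC against DNCB (0.0201), the last lost without any 1 DNCB library or scivMSC replicate 1 or 3 (adjusted p 0.0505 to 0.0713).

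Txnrd1 and Prdx3 were lower in DNCB than in control skin. Txnrd1, the cytosolic reductase that recharges thioredoxin, read 19.4, 21.5 and 17.8 FPKM in control, 12.5, 12.3 and 14.4 in DNCB, 22.8, 24.4 and 24.7 in scMSC, and 20.3, 14.3 and 18 in scivMSC. The scMSC libraries were the highest of all. It was lower in DNCB than in control by -0.77 ± 0.16 (edgeR adjusted p = 0.00524) and higher in scMSC than in DNCB by 0.90 ± 0.16 (0.00497), while scivMSC against DNCB gave 0.44 ± 0.16 (0.12). Prdx3, the mitochondrial peroxiredoxin, read 53.9, 53.7 and 40.8 FPKM in control, 29.6, 28.2 and 28.4 in DNCB, 29.2, 27.8 and 31.5 in scMSC, and 24.6, 25.4 and 30.3 in scivMSC. No exposed library reached the control libraries, with -0.98 ± 0.16 in DNCB (edgeR adjusted p = 0.00173), -0.91 ± 0.16 in scMSC (0.00342) and -1.06 ± 0.16 in scivMSC (0.00494) against control. Skeletal muscle markers were likewise highest in the 3 control libraries, and their part in the levels of Gstm1, Gpx4 and Prdx3 was not tested.

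Prdx2 read 58.9, 70.4 and 63.0 FPKM in control, 63.0, 63.5 and 62.8 in DNCB, 76.9, 120 and 97.3 in scMSC, and 81.0, 72.1 and 80.0 in scivMSC. The MSC libraries were above all others, and scMSC was called against DNCB at 0.67 ± 0.18 (edgeR adjusted p = 0.0323), a call lost without any 1 DNCB library or scMSC replicate 2 or 3 (adjusted p 0.0516 to 0.107). The genes Rnaseh2a and Junb overlap Prdx2 on the other strand. Prdx6 read 19.4, 20.2 and 19.6 FPKM in control, 23.9, 29.1 and 27.2 in DNCB, 18.5, 18.2 and 13.6 in scMSC, and 21, 28.0 and 17.8 in scivMSC. It was lower in scMSC than in DNCB by -0.64 ± 0.17 (edgeR adjusted p = 0.0306), lost without scMSC replicate 1 or 3, or without DNCB replicate 2 or 3 (adjusted p 0.0504 to 0.111). Neither Prdx1 nor Prdx5, with DNCB means of 104 and 124 FPKM beside 65.7 and 122 in control, was called. Srxn1, which repairs overoxidized peroxiredoxins, read 10.8, 2.73 and 10.3 FPKM in control, 20.4, 20.9 and 17.9 in DNCB, 12.4, 19.3 and 8.71 in scMSC, and 14.4, 15.3 and 10.7 in scivMSC. Control replicate 2 lay far below the other control libraries. DNCB against control gave 1.14 ± 0.44 (edgeR adjusted p = 0.0801), which was not called here but was with library size alone, DESeq2 and limma on FPKM.

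Nfe2l2 (ENSMUSG00000015839, chr2:75675513-75704641, minus strand), the gene of NRF2, read 17.4, 18.4 and 23.2 FPKM in control, 41.9, 42.9 and 42.7 in DNCB, 20.7, 16.2 and 18.9 in scMSC, and 20.4, 29.8 and 18.3 in scivMSC. The 3 DNCB libraries were close to each other and above all others. Nfe2l2 was 1.91-fold higher in DNCB than in control (log2 0.93 ± 0.16, n = 3 per group, edgeR adjusted p = 0.00217). It was lower than in DNCB by -1.17 ± 0.16 in scMSC (0.0022) and by -0.90 ± 0.16 in scivMSC (edgeR adjusted p = 0.00937), and overlapped control in both. Keap1 read 12.9, 11.7 and 14.4 FPKM in control, 10.8, 12.0 and 11.2 in DNCB, 12.1, 8.80 and 11.5 in scMSC, and 11.3, 13.2 and 9.39 in scivMSC. Its groups overlapped throughout, with -0.38 ± 0.13 in DNCB against control (edgeR adjusted p = 0.05, not called, but called in 8 alternatives) and -0.43 ± 0.13 in scMSC against control (0.0392, called). In 15 of 23 alternatives the latter was not called (adjusted p 0.0534 to 0.262), and 8 of these left out control replicate 1 or 3, a DNCB library, scMSC replicate 2 or 3, or scivMSC replicate 1. Levels of the NRF2 protein were not measured.

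Nqo1 and Hmox1 are widely used NRF2 targets, and their transcripts differed in course. Nqo1 (ENSMUSG00000003849, chr8:107388225-107403206, minus strand), the quinone reductase, read 10.3, 6.80 and 6.74 FPKM in control, 8.37, 7.29 and 8.29 in DNCB, 3.84, 3.41 and 3.82 in scMSC, and 3.27, 4.56 and 4.91 in scivMSC. All 6 MSC libraries were below the 6 others. DNCB and control differed by -0.18 ± 0.23 (edgeR adjusted p = 0.609), with a sign that changed with the scaling and without control replicate 1. Against DNCB the MSC groups were lower by -1.09 ± 0.23 in scMSC (0.0115) and -0.89 ± 0.23 in scivMSC (edgeR adjusted p = 0.0373), and against control by -1.27 ± 0.23 (0.00452) and -1.08 ± 0.23 (0.0137). The second of these 4 was lost in 9 alternatives, without any 1 DNCB or scivMSC library included (adjusted p 0.0507 to 0.128). The last was lost with only the 6 libraries compared (edgeR adjusted p = 0.0776).

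Hmox1 (ENSMUSG00000005413, chr8:75093621-75100589, plus strand), haem oxygenase, read 21.8, 29.1 and 54.5 FPKM in control, 109, 87.5 and 86.2 in DNCB, 47.2, 65.0 and 25.9 in scMSC, and 37.3, 43.2 and 22.4 in scivMSC. The DNCB libraries were the highest, and the other groups overlapped. DNCB exceeded control by 1.26 ± 0.38 (edgeR adjusted p = 0.0334), a call lost without control replicate 1 or 2 or any 1 DNCB library (adjusted p 0.0613 to 0.138). Against DNCB it was -0.99 ± 0.38 in scMSC (edgeR adjusted p = 0.122) and -1.46 ± 0.38 in scivMSC (0.0415), the latter lost in 11 alternatives, among them those without control replicate 2, scMSC replicate 1 or any 1 DNCB or scivMSC library (adjusted p 0.051 to 0.149).

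Of the remaining pseudogenes, Gstm2-ps1, with 46.9% of its stretches in other genes, read 4.95, 4.20 and 5.43 FPKM in control, 2.28, 2.32 and 2.04 in DNCB, 3.38, 1.73 and 2.59 in scMSC, and 3.49, 2.63 and 2.65 in scivMSC. It was lower than control by -1.31 ± 0.28 in DNCB (edgeR adjusted p = 0.00671) and -1.08 ± 0.28 in scMSC (0.0217, and 0.0526 to 0.0826 where lost, as without control replicate 1 or scMSC replicate 2 or 3). Of its stretches, 35.4% occur in Gstm1, and 14.1% of those of Gstm1 occur in Gstm2-ps1. The values of this pair are therefore not fully separate. Prdx2-ps1, named after its values were seen, was called lower in DNCB than in control from means of 0.425 and 1.14 FPKM (-1.58 ± 0.51, edgeR adjusted p = 0.0432). Those means rest on only 13 to 28 estimated counts per DNCB library and 37 to 61 per control library. Of its stretches, 25.5% occur in Prdx2. Gpx4-ps1 was not called.

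The routes of MSC delivery were compared directly. In scivMSC against scMSC none of the 48 genes was called by edgeR. Of the 48, 11 had an unadjusted edgeR p under 0.05, a larger share than the 7.50% of all genes. The groups did not overlap for 8 of the 48, beside 10.8% of all genes. Whether either share differs from that of all genes was not tested. Over all genes edgeR called 1, or 0.00457%, and DESeq2 called 138, or 0.630%. The latter held 1 of the 48, Gsta1, which was 2.76-fold higher in scivMSC in the edgeR fit (log2 1.46 ± 0.32, edgeR adjusted p = 0.565). Gsta4 and Gsto1 differed by 0.89 ± 0.33 and 0.88 ± 0.34, and scivMSC replicate 2 was the highest MSC library for both. A p that misses the threshold does not show that the routes acted alike.

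A wider list of 89 genes of the same pathways, none of them among the 53, put these values in context, and 86 of them were tested. In DNCB against control 15 were higher and 22 lower, in scMSC against DNCB 7 and 18, and in scivMSC against DNCB 7 and 8. As shares of the 86 these are 17.4% and 25.6%, beside 12.9% and 12.4% of all genes, then 8.14% and 20.9% beside 6.95% and 5.77%, and 8.14% and 9.3% beside 4.56% and 3.60%. The share higher in scMSC was near that of all genes. The list, like the 53 genes, was drawn up with earlier results of these data known. In scivMSC against scMSC 0 of the 86 were called by edgeR. The alternatives were not examined for this list, so that it is not known which of its calls they would keep.

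Of 9 enzymes tested that produce oxidants, 5 were called higher in DNCB than in control and 0 lower, beside 12.9% and 12.4% of all genes. Nos2, inducible nitric oxide synthase, went from 0.281 FPKM in control to 3.37 in DNCB (3.40 ± 0.84, edgeR adjusted p = 0.0139). Ncf4, a subunit of the phagocyte oxidase, differed by 1.85 ± 0.53, Cyba, its membrane subunit, by 1.44 ± 0.47, and Duox1, an epithelial oxidase, by 1.43 ± 0.29. These 4 were lower in scMSC than in DNCB, and Nos2 and Ncf4 also in scivMSC. Neutrophil markers moved with them in the same groups, and their part was not tested.

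Enzymes that remove superoxide and peroxide were lower in DNCB than in control in 3 of 4, where 12.4% of all genes were lower. Cat (catalase) went from 62.6 to 38.6 FPKM (-0.88 ± 0.22), Sod2 from 14.5 to 9.18 (-0.85 ± 0.17) and Sod1 from 28.0 to 18.4 (-0.80 ± 0.15). Cat was higher in scivMSC than in DNCB, at 79.9 FPKM (1.05 ± 0.22, edgeR adjusted p = 0.0196). Of 15 genes of thioredoxin, glutaredoxin and thiol repair, 8 were lower and 1 higher, or 53.3% and 6.67%, beside 12.4% and 12.9% of all genes. The higher gene and some of the lower ones are not named here. The lower genes were led by Msrb2 (-1.20 ± 0.31), Msrb3 (-1.12 ± 0.18) and Txnrd2 (-0.94 ± 0.21), which repair oxidized methionine or serve mitochondrial thioredoxin. Sesn1 was lower in DNCB and higher in both MSC groups than in DNCB (-0.74 ± 0.20, 0.71 ± 0.20 and 0.99 ± 0.20). Skeletal muscle markers were also highest in the control libraries, and their part in the levels of these genes was not tested.

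Of 22 other NRF2 targets and NADPH suppliers, 4 were higher and 4 lower, or 18.2% each beside 12.9% and 12.4% of all genes. Akr1b8, an aldo-keto reductase, averaged 5.93, 31.2, 4.55 and 8.12 FPKM in control, DNCB, scMSC and scivMSC skin, and the 3 differences were 2.20 ± 0.35, -2.76 ± 0.36 and -1.95 ± 0.35. The ferritin light chain gene Ftl1 went from 348 to 762, 298 and 334 FPKM (0.95 ± 0.23, -1.34 ± 0.23 and -1.19 ± 0.23). Aldh3a1, an aldehyde dehydrogenase, ran the other way at 18, 4.31, 10.5 and 15.9 FPKM (-2.25 ± 0.35, 1.29 ± 0.34 and 1.91 ± 0.34). Me1 (-1.60 ± 0.23), Ephx1 (-1.45 ± 0.20) and Nqo2 (-1.16 ± 0.17) were lower in DNCB than in control. Fth1, the heavy chain of ferritin, was lower than in DNCB in scMSC (-1.59 ± 0.17) and scivMSC (-1.40 ± 0.17).

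Among transferases outside the named classes, 2 were higher and 4 lower of 8 in DNCB against control, beside 12.9% and 12.4% of all genes. The 2 higher genes and some of the lower ones are not named here. The microsomal Mgst3 averaged 81.0 FPKM in control skin, 36.0 in DNCB (-1.36 ± 0.25), and 72.6 in scMSC (1.04 ± 0.24 against DNCB), and Gstz1 was also lower in DNCB (-1.23 ± 0.35). In glutathione turnover and conjugate export, 2 of 18 were higher (11.1%, near the 12.9% of all genes) and 0 lower, and 1 of the 2 was Slc3a2, the partner chain of the SLC7A11 exchanger (0.70 ± 0.11). Chac1, which degrades glutathione, went from 6.01 FPKM in DNCB to 111 in scMSC (4.27 ± 0.55) and 47.4 in scivMSC (2.98 ± 0.52), and Lap3, an aminopeptidase, from 28.9 to 108 (1.94 ± 0.27) and 59.5 (1.06 ± 0.26). Hair follicle markers were also highest in the MSC groups, and their part in these values was not tested. Of 10 partners and regulators of NRF2, Nfe2l1 (-1.52 ± 0.40), Cul3 (-0.73 ± 0.12) and Sqstm1 (-0.70 ± 0.18) were lower and Bach1, a repressor of NRF2 targets, higher (0.69 ± 0.19) in DNCB than in control. These are 30% lower and 10% higher, beside 12.4% and 12.9% of all genes, and the share higher is near that of all genes. Nfe2l3 was higher than in DNCB in scMSC (1.38 ± 0.20) and scivMSC (1.14 ± 0.20).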

How the data were processed

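Whole dorsal skin was analysed in 12 libraries, 3 mice to a group. The study's blood samples were not analysed here. For each of 36400 Ensembl genes the authors deposited whole-number estimated counts, not normalized between libraries, and FPKM, which are scaled for length and depth. The submitters' processing notes name HISAT2 2.0, Bowtie 0.12.2, StringTie 1.3.0 and the build mm8, without their roles, but the coordinates in the table are those of GRCm38, and all 53 members lie at their GENCODE M21 positions there. Multiples of 4 made up 38.9% to 41.2% of the low estimated counts (1 to 18) of a library, so that 1 fragment may count about 4 times, and sampling error is larger than the counts show.

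The 21890 genes that averaged 0.1 FPKM or more were fitted in edgeR (version 4.0.16, under R version 4.3.3) and compared by its quasi-likelihood test, with all 4 groups in 1 model, TMM factors of 0.887 to 1.06 and a common biological coefficient of variation of 0.42. Calls required an adjusted p (Benjamini-Hochberg) under 0.05, and SE were derived from F. Adjusted p in parentheses without a name are from this test. Alternatives used DESeq2 1.42.0, limma 3.58.1 on log2(FPKM + 0.1), + 0.01 or + 1, other scaling, filters and thresholds, counts divided by 4, the 6 libraries compared alone, the replicate number as a block, and each library left out. Replicates of a group correlated at 0.944 to 0.967. Tables and plots used Python 3.11.15, pandas 2.3.3 and matplotlib 3.10.9.

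Members called in any of the 6 comparisons with a mean of at least 1 FPKM, and 10 members whatever their test (Nfe2l2, Keap1, Nqo1, Hmox1, Gclc, Gclm, Gsr, Txnrd1, Srxn1 and Slc7a11), 35 in all, are given in every library. From the wider list, some of the genes called in a comparison with DNCB are named. The others are given only within the counts for their role. Dpep2, on 2 rows, was left out of that list. One further gene of that list is counted but not reported here. The members and lists were chosen with earlier results of these data known. Shared 50-base stretches were counted between GENCODE M21 transcripts, and where shares are high the values of single genes are uncertain. Other genes also overlap further members, among them Fntb on the other strand of Gpx2 and Eid3 on the same strand as Txnrd1. The part of such overlaps in the values was not tested.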

Additional observations from a re-analysis of the deposited data

How the results depend on the processing

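The direction of every called difference of the 35 genes given in each library was kept in the 23 alternatives. The calls themselves were kept in all 23 for 19 of 25 genes in DNCB against control, 11 of 17 in scMSC against DNCB, 4 of 14 in scivMSC against DNCB, 10 of 19 in scMSC against control and 6 of 12 in scivMSC against control. With a log2 fold change also over 1, the counts of called members fell from 26, 17, 14, 19 and 12 in that order to 16, 10, 7, 12 and 6. With no filter on low values scivMSC against DNCB gave 8. With only the 6 libraries compared, scivMSC against DNCB gave 7, scMSC against control 12 and scivMSC against control 6. DESeq2 called 1 member in scivMSC against scMSC. Leaving out each library in turn gave 21 to 28 calls in DNCB against control, 11 to 17 in scMSC against DNCB, 4 to 15 in scivMSC against DNCB, 10 to 20 in scMSC against control, 8 to 15 in scivMSC against control and 0 to 0 in scivMSC against scMSC. In DNCB against control, Nqo1 was reversed, at 0.0048 with library size alone, 0.032, 0.033 and 0.027 with limma on log2(FPKM + 0.1), + 0.01 and + 1, and 0.028 without control replicate 1 (-0.36 to 0.028 over the libraries left out). Gsr was reversed there too, at 0.18, 0.18, 0.18 and 0.17 under the same 4 settings, 0.049 without control replicate 1 and 0.030 without DNCB replicate 2 (-0.12 to 0.049). Neither was called in DNCB against control. The cause of these changes was not tested.

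With the replicate block, 23, 13 and 10 members were called in DNCB against control, scMSC against DNCB and scivMSC against DNCB. Deviations of same-numbered libraries of different groups correlated at -0.185 to 0.133, and 1 of 18 pairs was above 0.1. Differently numbered pairs correlated at -0.148 to 0.148. With so few libraries these values cannot show whether a shared number marks a pairing or a batch. With 3 libraries per group, differences of the size of the SE given cannot be resolved, and Gsta1, Gstp2, Gpx4-ps2 and other genes that share sequence are limited by the assignment of reads, not by depth alone.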
